A study of Mus musculus with 23 samples.

Results

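Thymic epithelial cells (TECs) that lacked surface PLET1 at embryonic stage E14.5 were compared between *Rbpj* conditional knockouts (cKO) and controls. The comparison was defined by the sample labels alone and held 6 libraries of 23 in the series, 3 cKO and 3 control. The cKO embryos carried *Foxn1*Cre with *Rbpj* fl/fl, so that the alleles were removed in cells that had switched on *Foxn1*. The controls were labelled wild type and were littermates per the study methods, the strain of both groups was given as C57BL/6, and no agent was given. Whether the controls carried *Foxn1*Cre, and whether a library drew on one embryo or several, was not given in the sources used here. *Foxn1*Cre acts in TECs and also in some skin epithelium. The paper calls the deletion relatively late and proposes that some medullary progenitors may arise before Notch function is lost. The cross therefore does not test RBPJ before that point. By the study methods the E14.5 libraries of the cross came from 2 litters. Each library was made with Smart-seq2 from 100 sorted cells of fetal thymus. The 3 PLET1+ cKO and 3 PLET1+ control libraries of the same stage were used only to show where the PLET1- cells differed.

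In canonical Notch signalling a ligand on one cell (Jagged or Delta-like) binds a NOTCH receptor on its neighbour, the receptor is cut by ADAM and gamma-secretase proteases, and its freed intracellular domain joins the DNA-binding protein RBPJ and a Mastermind coactivator at target genes such as those of the HES and HEY families. Without that domain RBPJ can recruit corepressors instead, so that loss of RBPJ may remove both activation and repression. PLET1 marks early TEC progenitors of the fetal thymus, and TECs divide into cortical cells (cTECs), which select thymocytes early, and medullary cells (mTECs), which impose tolerance.

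The 6 libraries held 24561602 to 52617261 counts on 17102 to 18440 genes. Replicate 1 of both genotypes stood apart, with 7.80% and 8.11% mitochondrial counts against 4.29% to 4.60% in the other 4. *Epcam*, the surface protein used to sort TECs, lay between 525 and 615 normalized CPM (counts scaled to a common library total after TMM adjustment) in every library, and *Plet1* lay between 0 and 6.30 normalized CPM in both PLET1- groups, against 10.2 to 28.4 in the PLET1+ libraries. The Y-linked genes summed to 272 normalized CPM in control replicate 2 and 296 in cKO replicate 3 and to at most 0.204 in the other 4. A cKO and a control library of the same number therefore differed in sex in 2 of 3 pairs. Markers of other cells varied within both groups. The 8 mesenchymal markers summed to 456, 1161 and 5.59 normalized CPM in control replicates 1 to 3 and to 543, 51.9 and 20.5 in the cKO, and all 8 had a fitted log2 fold change below 0. The 3 parathyroid markers summed to 1448, 886 and 2.03 in the controls and to 1.01, 207 and 283 in the cKO. The 12 thymocyte markers summed to 14.7 to 50.2, with *Cd3d* and *Il7r* at 0 in all 6, and the 6 endothelial markers, with *Cdh5* at 0, to 0.0842 to 10.3. Of 7 macrophage markers 6 were at 0 throughout, and the erythroid markers summed to at most 1.96.

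**Figure D1:**
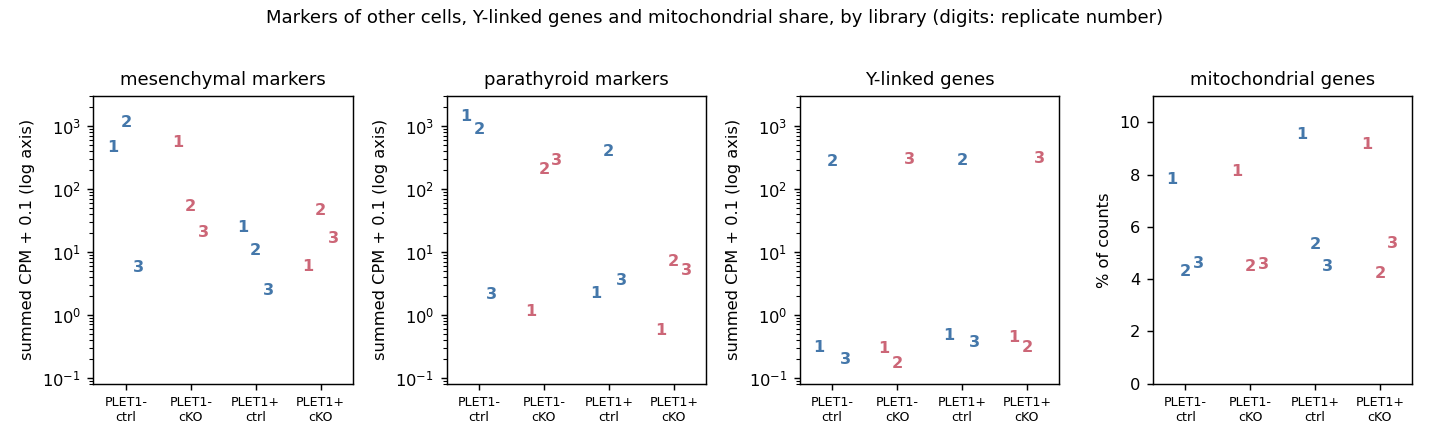
Summed normalized CPM of mesenchymal, parathyroid and Y-linked genes (log axes, 0.1 added) and the percentage of counts on mitochondrial genes, for each PLET1- and PLET1+ library of the *Rbpj* cross. Digits give the replicate number. The mesenchymal sum ran from 5.59 to 1161 within the 3 PLET1- controls, and replicate 1 of both PLET1- groups had the higher mitochondrial share.

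No gene differed between PLET1- cKO and control TECs at an adjusted p of at most 0.05 among 19140 tested (0% called, edgeR quasi-likelihood test with Benjamini-Hochberg adjustment, adjusted p = 1 for every gene). An unadjusted p under 0.05 was reached by 447 genes, or 2.34% of those tested, a share below the 0.05 that evenly spread p-values would give. Of these genes 161 (0.841%) were higher and 286 (1.49%) lower in the cKO. This balance rested on single libraries, being 194 higher and 145 lower without cKO replicate 1, 223 and 222 without cKO replicate 3, and 105 and 402 without control replicate 3. With the replicate number as a block the total was 208, again with 0 genes called. limma-voom called 0 genes, with a lowest adjusted p of 0.0504, and 478 at an unadjusted p under 0.05. DESeq2 called 187, of which 172 had counts of 0 in every library of one group and 153 had counts in at most 2 of the 6 libraries. The libraries of the groups did not overlap for 1114 genes, or 5.82% of those tested, 502 (2.62%) with the cKO higher and 612 (3.2%) with the cKO lower. The gene values that follow are therefore measured levels, and no gene passed the test.

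*Rbpj* (chr5:53466152-53657362, GRCm38), the targeted gene, had 9.50, 11.1 and 26.2 normalized CPM in control replicates 1 to 3 and 4.44, 3.42 and 8.29 in the cKO. Every cKO library lay below every control library, but before TMM scaling cKO replicate 3 (9.45 CPM) lay just above control replicate 1 (9.36 CPM). The log2 fold change was -1.50 ± 1.03 (SE), and the mean was 2.90-fold lower (15.6 ± 9.18 against 5.38 ± 2.56, SD, n = 3 each). Counts were taken over all exons, so transcripts that had lost the deleted exons could still be counted, and remaining transcript and remaining undeleted cells cannot be told apart. Of the other 9 nuclear partners of RBPJ measured, 5 had a log2 fold change above 0 and 4 below.

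Among these partners only *Ncor1*, which encodes a corepressor that RBPJ can recruit, also separated the groups. It had 94.2, 59.0 and 68.4 normalized CPM in the controls, against 31.6, 46.0 and 56.8 in the cKO, which gave a log2 fold change of -0.72 ± 0.35 (SE). The cKO libraries were lower in each case, though control replicate 2 and cKO replicate 3 were close, and without replicate 1 of both groups the value was -0.30. The coactivator *Maml1* overlapped fully, with 4.75 to 11.6 in the controls, compared with 8.38 to 11.3 in the cKO.

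The direct targets of the pathway split by direction. Of 8 target genes with counts, 6 had a log2 fold change above 0 and 2 below, with a median of 0.23 against 0.02 over all genes, and of -0.10 without cKO replicate 2. *Hes1* (chr16:30064384-30067796), a transcriptional repressor and standard Notch readout, had 46.2, 51.4 and 62.5 normalized CPM in the controls, against 27.3, 32.9 and 28.0 in the cKO. All 3 cKO libraries were below all 3 controls. The mean was 1.82-fold lower, the log2 fold change -0.83 ± 0.38 (SE, unadjusted p under 0.05), and without replicate 1 of both groups the value was -0.86 and its unadjusted p was above 0.05. With limma-voom the unadjusted p was 0.161, and with edgeR and the replicate block 0.0493. In a pool of 100 cells, fewer cells with a transcript and less of it per cell cannot be told apart.

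*Heyl*, a related repressor, had 18.0, 41.2 and 33.6 normalized CPM in the controls, compared with 0.547, 22.9 and 16.9 in the cKO. Its groups overlapped, since control replicate 1 lay between cKO replicates 2 and 3, and its lowest value was in cKO replicate 1, one of the pair with the higher mitochondrial share. The log2 fold change was -1.22 ± 1.05 (SE), -0.63 without cKO replicate 1, -2.43 without cKO replicate 2 and -2.07 with the replicate block. *Hey1* had 162, 154 and 169 normalized CPM in the controls, against 176, 186 and 205 in the cKO. Its cKO libraries were all slightly above the controls, by a log2 fold change of 0.22 ± 0.30 (SE), but before TMM scaling cKO replicate 1 (159 CPM) was below every control. *Hes6*, a HES relative that can oppose HES1, overlapped, with 774 to 825 in the controls and 643 to 1161 in the cKO, and *Hes5* had no count in any of these libraries.

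*Hey2* (chr10:30832359-30842801), a repressor of the same HEY family, was higher in the cKO. It had 0, 0.607 and 0.0190 normalized CPM in the controls, from 0, 18 and 1 counts, and 10.6, 1.80 and 2.68 in the cKO, from 503, 76 and 75 counts. Its groups did not overlap, all 3 cKO libraries being above the highest control, and the highest value was again in cKO replicate 1. The log2 fold change was 5.42 ± 1.72 (SE, unadjusted p under 0.05), DESeq2 gave an adjusted p of 0.00467, and the value ranged from 4.34 to 7.71 over 19 other settings. Without replicate 1 of both groups it was 5.05.

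The promoter windows of *Hey2*, of *Hes5* as a textbook Notch target, and of *Efhd1*, a gene lower in every cKO library that is described further on, are shown to set the measured levels beside the RBPJ letters. Each runs from 250 bases before to 50 after the RefSeq start in GRCm38.p6, 5′ to 3′ on the gene's strand, with capitals marking the core RBPJ motif TGGGAA or its reverse TTCCCA, or the longer form CGTGGGAA or TTCCCACG, which contains the core. *Hey2* is at chr10:30842734-30843033 on the minus strand, *Hes5* at chr4:154960673-154960972 and *Efhd1* at chr1:87264103-87264402, both on the plus strand.
Hey2: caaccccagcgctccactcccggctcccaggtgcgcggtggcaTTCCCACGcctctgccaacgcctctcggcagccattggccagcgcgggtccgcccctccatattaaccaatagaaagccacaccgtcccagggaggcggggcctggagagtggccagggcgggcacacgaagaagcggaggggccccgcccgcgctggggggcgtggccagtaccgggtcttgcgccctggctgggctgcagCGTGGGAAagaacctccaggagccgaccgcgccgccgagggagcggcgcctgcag
Hes5: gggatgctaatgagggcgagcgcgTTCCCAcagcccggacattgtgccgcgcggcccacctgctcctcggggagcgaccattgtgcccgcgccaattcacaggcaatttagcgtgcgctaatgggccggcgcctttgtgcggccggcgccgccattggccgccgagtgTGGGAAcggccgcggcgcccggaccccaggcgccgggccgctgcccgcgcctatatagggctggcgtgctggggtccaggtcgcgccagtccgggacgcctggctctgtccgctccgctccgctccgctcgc
Efhd1: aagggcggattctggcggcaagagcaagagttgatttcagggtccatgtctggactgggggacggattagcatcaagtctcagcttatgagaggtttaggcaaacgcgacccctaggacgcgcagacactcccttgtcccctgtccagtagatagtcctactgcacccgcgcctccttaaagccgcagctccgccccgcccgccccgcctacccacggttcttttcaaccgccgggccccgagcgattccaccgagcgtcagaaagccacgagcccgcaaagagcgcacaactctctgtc
Both matches in *Hey2* were of the longer form, those in *Hes5* of the core only, and *Efhd1* held neither. The core was found in 25.6% of 32851 mouse windows of this length and the longer form in 0.734%, while 4 windows (0.0122%) held 2 or more of the longer form. Of the 48 genes in the Notch lists 36 had a window, 13 of these held the core, and *Lfng* and *Hey2* held the longer form. *Hes1*, *Heyl* and *Hey1* were without a window. A match describes letters in the sequence and not binding.

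**Figure D2:**
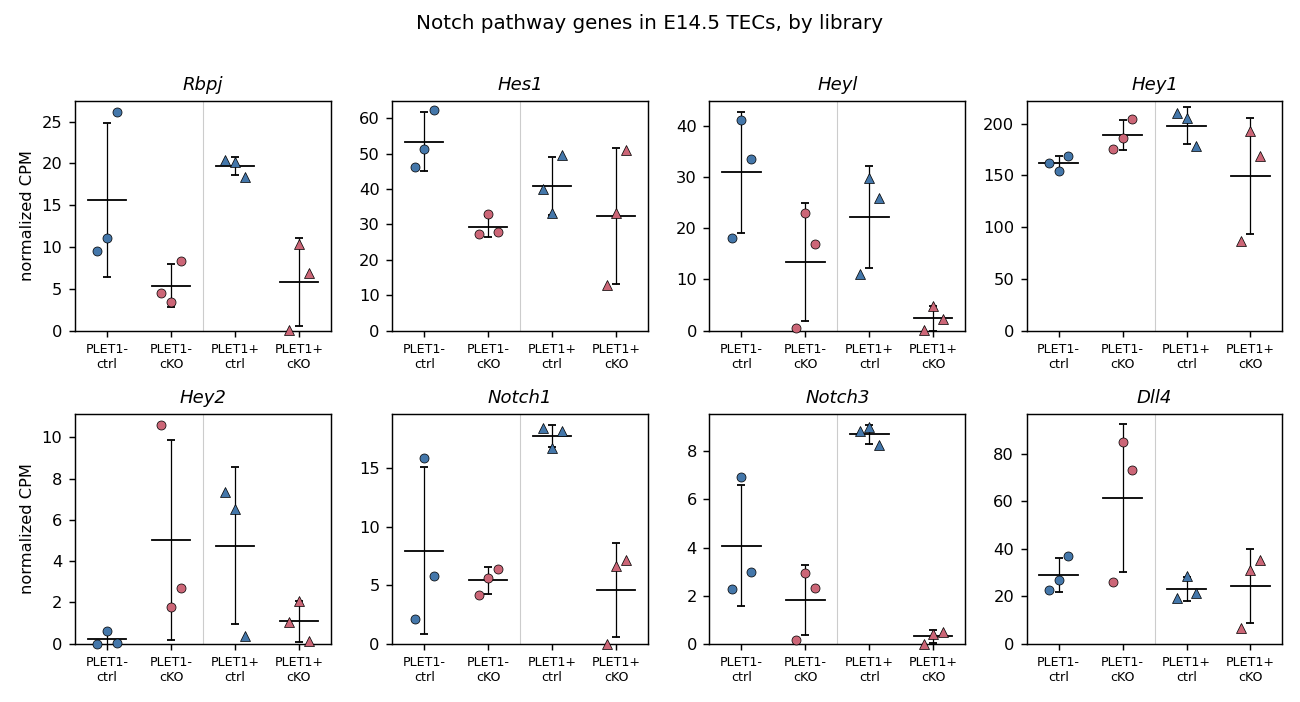
Normalized CPM of *Rbpj*, 4 HES and HEY genes, 2 receptors and *Dll4* in each library (points), with the mean (bar) and SD (error bar, cut at 0) of 3 libraries a group; circles are PLET1- and triangles PLET1+. In PLET1- cells the cKO points of *Rbpj* and *Hes1* lay below the controls and those of *Hey1* and *Hey2* above them, though for *Rbpj* and *Hey1* not before TMM scaling.

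Receptor levels overlapped between PLET1- cKO and control for all 4 *Notch* genes, of which 3 had a log2 fold change below 0. *Notch1* had 2.12, 15.9 and 5.78 normalized CPM in the controls, compared with 4.19, 5.64 and 6.39 in the cKO. The cKO values lay inside the control range, and the direction of the fitted change, -0.59 ± 1.11 (SE), depended on control replicate 2, without which it was 0.67. *Notch3* had 2.27, 6.94 and 3.0 in the controls, against 0.168, 2.95 and 2.32 in the cKO, which gave a log2 fold change of -1.22 ± 1.12 (SE) that ranged from -2.33 without cKO replicate 2 to -0.50 without control replicate 2. *Notch2* was highest in replicate 1 of both genotypes, with 352, 135 and 87.3 in the controls, compared with 495, 102 and 95.3 in the cKO.

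The ligands were level or higher in the cKO. All 4 with counts had a log2 fold change above 0, with a median of 0.90 (0.48 without cKO replicate 2), and none separated the groups. *Dll4*, the ligand by which TECs commit incoming progenitors to the T cell lineage, had 22.8, 26.8 and 36.9 normalized CPM in the controls, against 26.0, 84.7 and 73.1 in the cKO. Replicates 2 and 3 of the cKO were above every control but replicate 1 was not, and the log2 fold change was 1.10 ± 0.79 (SE), or 0.55 without cKO replicate 2. *Jag1* had 137, 54.5 and 80.2 in the controls, compared with 179.6, 52.2 and 66.5 in the cKO, while *Dll3* had no count.

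Among 11 genes for ligand and receptor processing with counts, 9 had a log2 fold change above 0, with a median of 0.13, or -0.24 without cKO replicate 2. *Mib1*, the ubiquitin ligase that makes ligands competent to signal, had 184, 100.3 and 104 normalized CPM in the controls, against 85.1, 80.4 and 94.6 in the cKO. The cKO libraries were all lower, with control replicate 1 well above the rest, and the log2 fold change was -0.56 ± 0.33 (SE), or -0.25 without that library. Of 8 negative regulators 6 were above 0, and *Numbl*, an adaptor that restrains NOTCH, separated the groups, with 0.306 to 0.876 normalized CPM in the controls and 1.07 to 2.39 in the cKO. Over all 45 Notch pathway genes with counts, 31 were higher and 14 lower by fitted value, where 51.7% of all genes tested were higher. The groups did not overlap for 7 of the 45, against 1114 of 19140 genes tested (5.82%). The 7 include *Rbpj*, the targeted gene, and *Rbpj* and *Hey1* separated only after TMM scaling. Whether the 7 exceeded the share over all genes was not tested. An unadjusted p under 0.05 was reached by *Hes1* and *Hey2* alone, where 447 of all genes tested (2.34%) reached it. The median log2 fold change of the 45 was 0.14, and 0.00 without cKO replicate 2.

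The cTEC genes were level or slightly higher in PLET1- cKO cells, with 9 of 10 fitted log2 fold changes above 0 and a median of 0.27. *Psmb11* (chr14:54625310-54629556), the proteasome subunit specific to cTECs, had 719, 911 and 914 normalized CPM in the controls, compared with 1058, 1311 and 1389.9 in the cKO. All 3 cKO libraries were above all 3 controls, the mean was 1.48-fold higher (848 ± 112 against 1253 ± 173, SD, n = 3 each), and the log2 fold change was 0.56 ± 0.39 (SE). Before TMM scaling the groups overlapped, with 708 to 1089 CPM in the controls and 955 to 1584 in the cKO. *Prss16*, the thymus-specific serine protease, had 917, 1346 and 1752 in the controls, against 1021, 2943 and 2608 in the cKO, where replicates 2 and 3 were above every control and replicate 1 was not. Its log2 fold change was 0.73 ± 0.36 (SE), or 0.26 without cKO replicate 2.

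*Ly75*, the endocytic receptor DEC-205 carried by cTECs and named here after its values were seen, was the other cTEC gene without overlap, at 251, 211 and 272 normalized CPM in the controls, compared with 292, 324 and 369.9 in the cKO, although before TMM scaling cKO replicate 1 (264 CPM) lay below control replicate 3 (304 CPM). *Foxn1*, the transcription factor that drives TEC differentiation and the locus of the Cre, was the exception by direction. It had 97.5, 275 and 295 in the controls, against 56.1, 187 and 185 in the cKO, lower in each same-numbered pair though the groups overlapped, with a log2 fold change of -0.64 ± 0.70 (SE) that ranged from -1.14 without cKO replicate 2 to -0.27 without cKO replicate 1. *Ccl25*, the chemokine that draws progenitors into the thymus, was highest in replicate 1 of both genotypes, at 5406, 2907 and 3250.1 in the controls, compared with 9696, 3059.9 and 4101 in the cKO.

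The mTEC genes were mostly lower by fitted value, 11 of 12, with a median log2 fold change of -1.17 and single values from -9.33 to 1.69. The highest value, 1.69 ± 2.89 (SE), was that of *Cldn3*, a marker of mTEC progenitors. It had 0.204, 0.876 and 1.73 normalized CPM in the controls, against 0, 8.46 and 0 in the cKO, so that it rested on cKO replicate 2. Over the whole list the result also depended on single libraries. The median was -2.59 without cKO replicate 2, -0.78 without control replicate 2 and -2.85 with the replicate block. *Krt5* (chr15:101707070-101712891), the keratin of medullary and basal epithelium, was the one member with an unadjusted p under 0.05. It had 20.3, 138 and 25.4 normalized CPM in the controls, against 10.3, 17.1 and 23.4 in the cKO. The cKO libraries overlapped with control replicates 1 and 3, and control replicate 2 stood far above all others. The log2 fold change was -1.73 ± 0.65 (SE, unadjusted p under 0.05) and -0.46 without control replicate 2, the library with the largest mesenchymal sum, whose part in the result was not tested. Without the filter on low counts edgeR called *Krt5* (adjusted p = 0.0354), while DESeq2 did not (adjusted p = 0.278). The unadjusted p was 0.293 with limma-voom and 0.0137 with edgeR and the replicate block. *Krt14*, the partner keratin of KRT5, had 29.6, 25.4 and 19.7 in the controls, compared with 35.7, 13.7 and 9.82 in the cKO.

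Regulators of mTEC maturation were near the limit of detection in PLET1- cells, and those described here were named after their values were seen. *Fezf2*, a transcription factor for self-antigen expression, had 2.96, 3.51 and 0 normalized CPM in the controls and no count in any cKO library. Against a floor of 3 counts per library the mean was at least 26.8-fold lower. This is a bound on measured counts and not on expression in the cells. One control library was also at 0, so the groups overlapped. *Spib*, a transcription factor of developing mTECs, had 6.61, 3.57 and 0 in the controls, against 0.505, 0 and 0 in the cKO, which gave a log2 fold change of -4.15 ± 2.15 (SE) that ranged from -9.77 without cKO replicate 1 to -3.24 without control replicate 1. *Aire*, the autoimmune regulator, had 4.37, 1.55 and 0 in the controls but 0.0210, 3.57 and 0 in the cKO, with cKO replicate 2 inside the control range. Control replicate 3, which had no count of *Fezf2*, *Spib* or *Aire*, was also the control with the lowest mesenchymal and parathyroid sums, whose part was not tested.

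**Figure D3:**
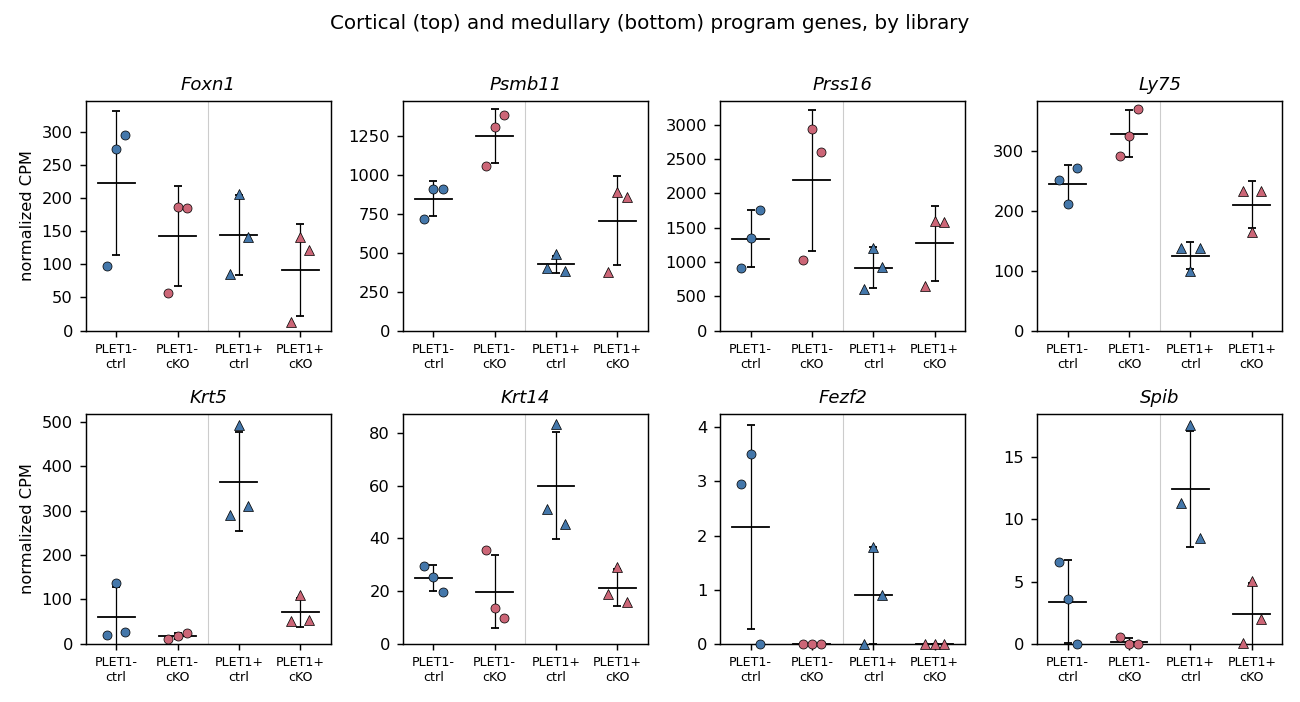
Normalized CPM of 4 cTEC genes (upper row) and 4 mTEC genes (lower row) in each library, with the mean (bar) and SD (error bar, cut at 0) of 3 libraries a group; circles are PLET1- and triangles PLET1+. *Psmb11* and *Ly75* were higher in every PLET1- cKO library than in any PLET1- control after but not before TMM scaling, and one control point of *Krt5* (138) lay far above the other 5 PLET1- libraries.

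The 17 proliferation genes had a median log2 fold change of 0.01, and *Mki67*, a marker of cycling cells, had 131, 149 and 144 normalized CPM in the controls, compared with 126, 124 and 112 in the cKO, lower without overlap by a log2 fold change of -0.23 ± 0.27 (SE). Before TMM scaling cKO replicate 2 (144 CPM) lay above control replicate 1 (129 CPM). The 12 pouch and progenitor genes with counts had a median of -0.01 and split 6 higher and 6 lower, the 9 MHC class II genes -0.01, the 12 NF-kB relay genes 0.05, the 14 junction and keratin genes 0.01 and the 10 thymocyte support genes 0.14. The 10 MHC class I genes had a median of 0.33, with 9 above 0. Among these *Psmb9*, an immunoproteasome subunit named after its values were seen, had 243, 177 and 189.9 in the controls, against 371, 270.2 and 325 in the cKO without overlap. The first 3 members of that list, *B2m*, *H2-K1* and *H2-D1*, overlapped between groups, with log2 fold changes of 0.07, 0.28 and 0.11. The 9 immediate early genes had a median of 0.25 and the 7 heat shock genes one of -0.14, which became -0.16 and 0.12 without cKO replicate 2. *Jun*, an immediate early gene induced by cell handling among other signals, had 45.8, 143 and 192 in the controls, compared with 63.4, 585 and 307 in the cKO.

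**Figure D4:**
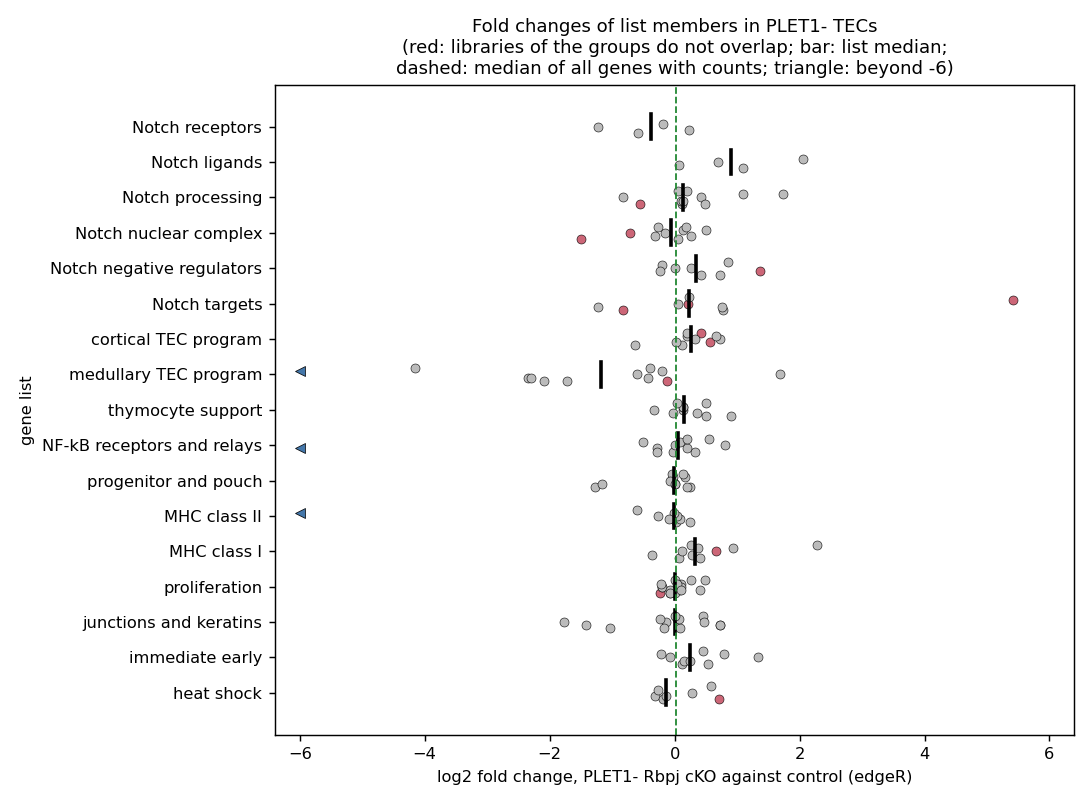
Fitted log2 fold change (cKO minus control, PLET1-) of each member of the gene lists (points), with the list median (bar) and the median of all genes (dashed line); red marks genes whose 3 cKO and 3 control libraries did not overlap, and blue triangles lie beyond the axis limit of -6. The mTEC median (-1.17) lay lowest among the TEC lists and the Notch ligand median (0.90) highest among the Notch lists.

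The genes with the smallest p-values were mostly near the detection limit. Of the 161 genes higher at an unadjusted p under 0.05, 116 had one group wholly at 0 and 7 had a mean above 10 normalized CPM. Of the 286 lower genes these numbers were 189 and 25. *Efhd1* (chr1:87264363-87310839), a calcium-binding protein of mitochondria, was one of these 25, with 43.0, 53.1 and 51.6 normalized CPM in the controls, against 5.11, 14.3 and 13.3 in the cKO. The groups were far apart relative to the spread within either. *Efhd1* was chosen for a small p and no overlap, so this gap follows in part from that choice. The mean was 4.51-fold lower (49.2 ± 5.45 against 10.9 ± 5.05, SD, n = 3 each), the log2 fold change was -2.19 ± 0.67 (SE, unadjusted p under 0.05), and it ranged from -2.60 to -1.84 over 19 other settings. It was not called by DESeq2, with an adjusted p of 0.0632.

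*Sncaip*, which encodes synphilin-1, had 13, 21.2 and 5.30 normalized CPM in the controls, compared with 3.30, 3.07 and 3.75 in the cKO. The cKO libraries were nearly alike and all lower, and the log2 fold change was -1.79 ± 0.56 (SE, unadjusted p under 0.05). *Mest*, an imprinted gene abundant in fetal mesoderm, had 74.2, 281 and 10.4 in the controls, against 1.68, 0.425 and 3.36 in the cKO. The mesenchymal sums of the same libraries were 456, 1161 and 5.59 for the controls and 543, 51.9 and 20.5 for the cKO, so that *Mest* and the sum had the same order within the controls but not within the cKO, and their part in the result was not tested. The log2 fold change was -6.56 ± 2.09 (SE), DESeq2 gave an adjusted p of 0.000453 and edgeR without the filter on low counts 3.5e-05.

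A desmosomal gene and a pair of Dickkopf genes were among those without a count in one genotype. *Pkp2*, a desmosomal plakophilin (chr16:16213318-16272712), had 2.20, 1.79 and 3.25 normalized CPM in the controls, from 86, 53 and 171 counts, and no count in any cKO library, at least 30.0-fold lower with the smallest p of any gene named. *Dkk3* (chr7:112116017-112159057), a secreted Dickkopf-family glycoprotein, had 12.8, 8.39 and 2.11 in the controls and none in the cKO, at least 96.5-fold lower. In the opposite direction *Dkk1* (chr19:30545863-30549665), a secreted inhibitor of Wnt coreceptors, had no count in any control and 8.42, 1.80 and 5.96 in the cKO, from 400, 76 and 167 counts, at least 68.9-fold higher. The folds in this paragraph were set against the floor of 3 counts per library and do not bound expression in the cells.

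Further genes lower in every cKO library, given as control against cKO replicates, included the chemokine *Cxcl14*, at 0.587, 2.16 and 3.12 against 0, 0.0236 and 0 normalized CPM, *Rhov*, at 7.71, 15.7 and 8.0 against 0.337, 0 and 0, and the mixed-lineage kinase *Map3k9*, at 6.26, 2.09 and 2.55 against 0.126, 0 and 0.0357. *2610528A11Rik* had 21.1, 10.3 and 3.46 against 0.463, 0.0472 and 0, and the serpin *Serpina9*, with 11.1, 29.5 and 0.0190 in the controls, had no count in the cKO. The pancreatic carboxypeptidase gene *Cpb1* and the atrial myosin light chain gene *Myl7* were at most 2.56 in the controls and at 0 in the cKO. Control libraries of one gene differed widely, as *Serpina9* shows, while the cKO libraries of all 7 stayed below 0.5 normalized CPM. The genes were chosen for cKO libraries below every control, so low cKO values follow in part from that choice.

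Of the 12 protein-coding genes with the smallest p among those higher in every cKO library, 7 had no count in any control. Beside *Dkk1* these were *Scube2*, a secreted and membrane-bound hedgehog carrier (5.14, 5.86 and 0.0714 normalized CPM in the cKO), *Lrp2bp* (2.69, 4.18 and 1.68), the mucin *Muc3* (4.13, 4.23 and 1.93), *BC107364*, *Nipal4* and the adenosine receptor *Adora2a*. *Clrn2*, *Ccdc63*, *Trim69* and *Tmtc2* had traces in one control each, the largest being 0.0951 for *Tmtc2*, which reached 1.01, 8.38 and 4.50 in the cKO. All 12 were low, and only *Hey2* reached 10 normalized CPM in a library. None of these 24 genes was called by edgeR, while DESeq2 called 7 of the 12 higher and 8 of the 12 lower, among them *Pkp2* (adjusted p = 1.91e-05), *Dkk3* (0.00014) and *Dkk1* (0.0262) but not *Efhd1* or *Sncaip*.

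**Figure D5:**
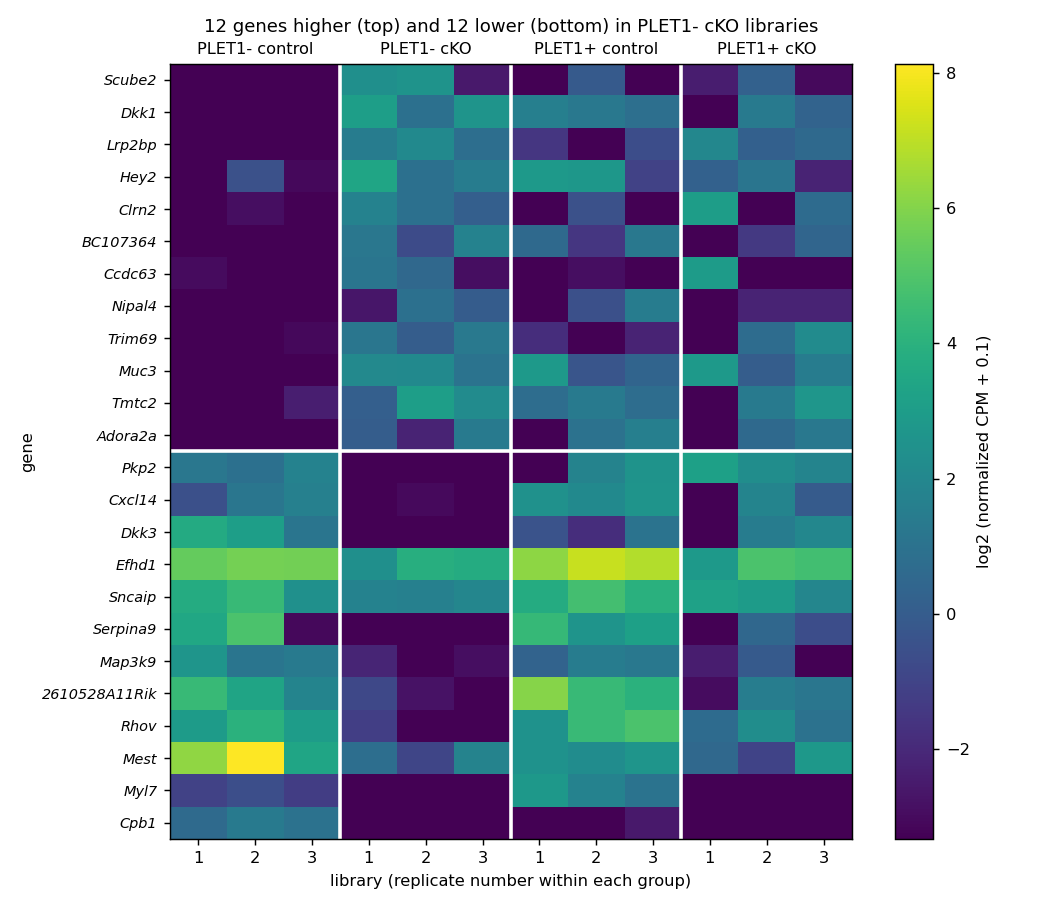
Level of the 12 genes higher and the 12 genes lower in PLET1- cKO by smallest p among those without overlap, as log2 of normalized CPM plus 0.1, in the 12 PLET1- and PLET1+ libraries of the cross. *Efhd1* and *2610528A11Rik* were lower in the cKO libraries of both populations, while *Pkp2* had no count in PLET1- cKO but 3.53 to 9.16 normalized CPM in PLET1+ cKO.

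The effect of the cKO was set against that in PLET1+ cells by testing the difference of the log2 fold changes, which no gene passed at an adjusted p of at most 0.05 (0% called of 19140, edgeR). An unadjusted p under 0.05 was reached by 502 genes (2.62%), 248 (1.3%) with the effect higher in PLET1- cells and 254 (1.33%) lower, by 149 with the replicate block, and DESeq2 called 116 genes. PLET1+ cells alone gave 0 called and 395 (2.06%) at an unadjusted p under 0.05, 152 (0.794%) higher and 243 (1.27%) lower. The shares of 2.62% and 2.06% were likewise below the 0.05 that evenly spread p-values would give. *Rbpj* itself differed in effect by 0.31 ± 1.43 (SE). The fitted effects on *Efhd1* and *Krt5* in the 2 populations lay within 1 SE of each other. *Efhd1* went from 73.2, 143 and 111 normalized CPM to 7.33, 29.4 and 25.0 in PLET1+ cells and its effects differed by 0.23 ± 0.91 (SE), and *Krt5* went from 291, 493 and 311 to 51.6, 109 and 52.6, with a difference of 0.65 ± 0.88 (SE). The high Y-linked sums fell on the same replicate numbers in PLET1+ cells (284 in control replicate 2 and 307 in cKO replicate 3). Whether both populations were sorted from the same embryos was not tested. The fit held no term linking the populations, so the SEs and p-values of the difference took their libraries as independent.

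*Notch3* was the only receptor whose effects differed at an unadjusted p under 0.05, by 3.66 ± 1.60 (SE, edgeR adjusted p = 1). Its groups overlapped in PLET1- cells, while in PLET1+ cells 8.84, 9.01 and 8.26 normalized CPM in the controls stood against 0, 0.418 and 0.498 in the cKO. The fitted effects on *Notch1*, *Notch2* and *Notch4* were also smaller in size in PLET1- cells, but each difference was smaller than its SE. For *Notch1* the effects were -0.59 against -2.0 (a difference of 1.41 ± 1.57, SE), with no count in PLET1+ cKO replicate 1. In PLET1+ cells *Notch2* and *Notch4* went the other way, by 1.02 and 0.86. The *Notch2* value rested on cKO replicate 1 (1390.3 normalized CPM), as the other PLET1+ cKO libraries lay below every PLET1+ control. *Notch4* was at most 0.902 in PLET1+ libraries. *Hey2* had opposite signs, with 7.35, 6.52 and 0.380 in PLET1+ controls and 1.07, 2.09 and 0.119 in PLET1+ cKO, and its effects differed, likewise at an unadjusted p under 0.05, by 7.44 ± 2.23 (SE, edgeR adjusted p = 1). The PLET1+ groups overlapped for *Hey2*, and PLET1+ control replicate 3 was as low as the PLET1- controls.

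*Pkp2*, *Dkk3* and *Dkk1* were also among the 4 genes with the smallest p for this difference in their direction. In PLET1+ cells *Pkp2* had 0, 3.4 and 5.89 normalized CPM in the controls, compared with 9.16, 4.74 and 3.53 in the cKO, so that it was present in the cKO there. *Dkk1* had 2.95, 2.32 and 1.71 in PLET1+ controls and 0, 2.48 and 1.16 in PLET1+ cKO, and *Dkk3* had 0.655, 0.182 and 1.97 against 0, 2.68 and 3.82. The other 4 were *Rasa4* and *Itgb8*, higher, and *Mrc1* and *Spag6l*, lower, in PLET1- cKO, none above 3.98 normalized CPM in a PLET1- library. *Spag6l*, *Rasa4* and *Itgb8* had a library at 0 in both PLET1- groups.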

How the data were processed

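Raw read counts per gene were deposited by the authors in one table. Per the labels and file headers, 75 bp paired-end Smart-seq2 reads, without molecular identifiers, were trimmed (Trimmomatic 0.32), aligned to GRCm38.p5 (STAR 2.5.1a) and counted without strand over GENCODE M12 exons by featureCounts (1.5.1 in the submitters' processing notes, 1.5.0-p3 in the header). Antisense and overlapping genes are thus uncertain. The study tested with limma-voom. Here all 23 libraries of 7 groups were fitted together (edgeR 4.0.16, R 4.3.3, TMM, filterByExpr, quasi-likelihood F test, two-sided, Benjamini-Hochberg over 19140 genes), on counts as deposited. The fit held a batch term for the E12.5 libraries of the *Rbpj* cross, another shared by all its E14.5 libraries, and none for libraries outside the cross. limma 3.58.1 and DESeq2 1.42.0 were alternatives, with other scalings, filters, covariates and libraries (the values under one of the scalings are not reported here). Scripts were tested on simulated data. Medians covered genes with counts in the 6 libraries.

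The members and gene lists were chosen with earlier results of these data known. Named genes were drawn from the Notch lists, the first 3 measured members of other lists and any at an unadjusted p under 0.05, the 12 protein-coding genes a direction with smallest p and no overlap, and the 4 a direction with smallest p for the difference between populations. Not every gene that met these rules is given. Others are said to be named after their values were seen.

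Same-numbered cKO and control libraries deviated together from their group means (r = 0.29 to 0.55 over 10020 genes, against -0.46 to 0.34 for other pairs), though these ranges overlapped. Replicates 1 and 2 shared batch 3 and replicate 3 was batch 4. The main fit had batch terms but did not pair libraries by number. The replicate number entered only in the alternative fit with the replicate block. By the study methods the E14.5 libraries came from 2 litters collected on different days. Replicates of one group differed in sex, so not all came from one embryo, but which libraries shared an embryo or litter was not given, and p-values measure the spread between these libraries. A floor of 3 counts per library was used for genes at 0.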

Additional observations from a re-analysis of the deposited data

How the results depend on the processing

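The 0 genes called in PLET1- cells became 187 with DESeq2 and 15 without the filter on low counts, and the 0 called for the difference from PLET1+ became 116 and 6. Other settings, each library left out included, called 0 for both. The 447 genes at an unadjusted p under 0.05 became 195 with the PLET1- libraries alone, 283 in batch 3 alone (replicates 1 and 2), 208 with the replicate block, 146 with a stricter filter, 1188 with none and 240 without replicate 1 of both groups, an alternative chosen after seeing the data. Leaving out 1 library gave 339 to 507. For the difference, 502 became 149 with the replicate block, 110 with the stricter filter and 1159 without one. Fewer libraries or genes entered most of these fits. For the others the cause was not tested.

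*Rbpj* was lower under every setting, with a log2 fold change from -1.70 to -1.18 (-1.49 with the replicate block). Over 36 other genes and 19 alternatives, 678 of 680 fitted values kept their direction. Genes chosen because their groups did not overlap are among the 36, so few reversals follow in part from that choice. *Notch1* reversed to 0.03 with limma-voom and to 0.67 without control replicate 2, the top of a range that began at -1.03 when 1 library was left out. The replicate block changed no other call. With 3 libraries a group and 100 cells a library, genes under a few normalized CPM were often at 0 in one library and present in another of the same group.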
